A study of Mus musculus with 6 samples.

Results

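The troponin genes of striated muscle were examined in cultured satellite cells, the stem cells that repair skeletal muscle. Members were the 8 genes whose GENCODE M21 symbols name a subunit of the troponin complex: Tnnt1, Tnnt2 and Tnnt3 (troponin T), Tnni1, Tnni2 and Tnni3 (troponin I), and Tnnc1 and Tnnc2 (troponin C). They are 8 of the 55536 genes counted in each library, and 8 of 8 were among the 22404 genes with enough counts to be tested. RNA-seq had been performed on 3 samples of each genotype, Pax7CreErt2;Hira fl/+ for control and Pax7CreErt2;Hira fl/fl for cKO, to ask what satellite cells express when the histone chaperone gene Hira is deleted. The sample labels call the controls WT, and the genotypes given here are those of the study's methods. All mice were adult males on a C57BL/6J background, and all carried the Pax7CreErt2 allele, so that a Cre recombinase made in Pax7-expressing cells cut the floxed alleles once the animals had eaten tamoxifen. The control cells carried a floxed Hira allele too, beside an intact one. Both groups had received an injection of BaCl2 into the tibialis anterior muscle, and satellite cells were sorted as positive for CD34 and ITGA7 and negative for CD45, TER119 and SCA1 at 5 days post-injury, and cultured for 48 h in high serum at low density. Whether each sample came from a separate mouse is not stated, so p-values measure the spread between these samples, which may in part be technical.

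Troponin sits on the thin filament of the sarcomere, where it makes contraction depend on calcium. Troponin C binds calcium, troponin I holds actin and myosin apart until that happens, and troponin T anchors the complex to tropomyosin. Each subunit has separate genes for slow and fast skeletal fibres, and the heart uses its own forms of troponin T and troponin I (Tnnt2 and Tnni3). Slow fibres and heart share a single troponin C (Tnnc1). Immature skeletal muscle is known to make some forms that adult fibres replace, among them Tnnt2.

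The genes lie in pairs of one T and one I form, with the exception of both troponin C genes. On mm10, Tnnt1 (ENSMUSG00000064179, slow T) lies on the minus strand at chr7:4504570-4516382, and Tnni3 (ENSMUSG00000035458, cardiac I) follows it on the same strand at chr7:4518305-4524229 after a gap of 1923 bp. Tnni2 (ENSMUSG00000031097, fast I) is on the plus strand at chr7:142441808-142444410. Tnnt3 (ENSMUSG00000061723, fast T) is on the same strand at chr7:142498836-142516009, with Lsp1 between them. Tnni1 (ENSMUSG00000026418, slow I) occupies chr1:135779434-135810989 and Tnnt2 (ENSMUSG00000026414, cardiac T) chr1:135836354-135852260, both on the plus strand, with Lad1 between them. Tnnc1 (ENSMUSG00000091898, slow and cardiac C) lies at chr14:31208312-31211729 on the plus strand, inside the span of Nisch but sharing no exon base with it. Tnnc2 (ENSMUSG00000017300, fast C) lies at chr2:164777161-164779967 on the minus strand, and 74.0% of its exon bases are also exon bases of Ube2c on the other strand.

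The 250 bases before the RefSeq start of 3 members are shown because these genes carry the results below: Tnnt1 was the member called different between the groups, Tnnt2 was the other troponin T gene with a RefSeq promoter here, and Tnnc1 had the highest level. Promoter sequence was matched for 6 of the 8 members. Sequences run 5′ to 3′ on the gene's own strand of GRCm38.p6, the assembly also called mm10, and come from chr7:4515976-4516225 (minus), chr1:135836084-135836333 (plus, the first of the Tnnt2 starts) and chr14:31208062-31208311 (plus). Capitals mark 2 kinds of letters found on either strand: the E-box CANNTG, which myogenic bHLH factors such as MYOD1 can bind, and the MCAT element CATTCC, which TEAD factors can bind (read as GGAATG on the other strand).
Tnnt1: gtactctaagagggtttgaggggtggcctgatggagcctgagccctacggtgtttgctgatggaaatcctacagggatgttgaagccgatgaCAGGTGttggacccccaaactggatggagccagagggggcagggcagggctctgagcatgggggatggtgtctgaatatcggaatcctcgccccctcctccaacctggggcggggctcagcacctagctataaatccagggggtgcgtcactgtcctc
Tnnt2: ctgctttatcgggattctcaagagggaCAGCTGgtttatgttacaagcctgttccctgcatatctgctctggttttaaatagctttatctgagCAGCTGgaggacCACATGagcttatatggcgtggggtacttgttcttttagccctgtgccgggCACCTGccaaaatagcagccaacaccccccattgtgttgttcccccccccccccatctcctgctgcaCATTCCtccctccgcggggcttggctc
Tnnc1: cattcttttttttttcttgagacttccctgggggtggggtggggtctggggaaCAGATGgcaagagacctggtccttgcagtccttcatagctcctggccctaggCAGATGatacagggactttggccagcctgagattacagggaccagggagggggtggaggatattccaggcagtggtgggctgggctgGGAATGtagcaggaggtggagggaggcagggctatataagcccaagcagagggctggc
Tnnt1 held 1 E-box and no MCAT letters. Tnnt2 held 4 E-boxes and 1 MCAT element, the latter starting 27 bases before the start, and Tnnc1 held 2 E-boxes and 1 MCAT element. Of 32851 promoters of this length, 66.2% held an E-box and 12.6% held MCAT letters, so the E-box is common in such windows. MEF2 and CArG motifs, present in 0.508% and 1.47% of promoters, were in none of the windows of the 6 matched members. These matches describe letters in a window and no binding was measured.

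Troponin messages differed widely in level in the control cells. Levels were compared between genes as CPM (counts scaled to a library total of 1000000) per kilobase of merged exons. Tnnc1 was the highest member at 1264 ± 25.3 CPM per kilobase (SD, n = 3), rank 24 of the 22404 tested genes. Tnnt3 followed at 426 ± 8.92, Tnnt1 at 301 ± 7.77 and Tnni1 at 223 ± 0.938 CPM per kilobase, with ranks of 110, 202 and 303. Tnnt2 at 98.3 ± 2.29 and Tnni2 at 66.1 ± 1.27 CPM per kilobase were lower, with ranks of 764 and 1187. Tnnc2 was counted at 1.62 ± 0.0317 and Tnni3 at 0.256 ± 0.0102 CPM per kilobase. The gaps between neighbours in this order were larger than the SD of the control replicates, but the order within troponin T depended on the length used. The reads were aligned without splitting over introns, so an exon shorter than a read of 75 bp cannot hold a whole read. Such exons hold 25.14% of the Tnnt3 exon bases, against 15.83% for Tnnt1 and 2.54% for Tnnt2. Counts per exon were not examined. Per kilobase of the mean coding transcript, which for Tnnt2 is 1029.6 bases in place of 7752 merged exon bases, Tnnt1 was at 894, Tnnt3 at 759 and Tnnt2 at 740.4 CPM per kilobase in control cells. By that measure the 3 troponin T genes lay close together and Tnnt1 was highest.

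The low value of Tnnc2 needs care. Control samples held 75, 81 and 79 counts, and cKO samples 69, 71 and 76. Only 31 of the 304 positions at which a 75-base read can start within an exon, or 10.2%, are free of Ube2c exons. Across the annotation, 460 genes have all of their exon bases shared with genes on the opposite strand only, and 0 of them had a count in any sample, whereas 69.5% of 43640 genes with no shared exon base had counts. Reads over the shared bases were thus not assigned to Tnnc2. Per free start position, Tnnc2 had 2.23 to 2.61 counts in a sample, beside 4.71 to 6.06 for Tnni2, 55.2 to 70.9 for Tnnt3 and 104 to 129 for Tnnc1. On that scale Tnnc2 was at 41.9 ± 0.817 CPM per kilobase in control cells, against 94.6 ± 1.81 for Tnni2. The merged exon value may thus understate the fast troponin C message, while Tnnc1 stayed far above it at 2034 ± 40.8. This scale takes every Tnnc2 count as a read of its message lying wholly within 1 exon, which was not checked. Tnni3 has no such limit: 4.17% of its exon bases are shared with Dnaaf3, and its 29 to 38 counts in a sample are low.

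Slow and fast forms of troponin T and troponin I were both abundant, whereas cardiac troponin I was nearly absent. In the control cells Tnni1 made up 77.0% ± 0.298 (SD, n = 3) of troponin I levels per kilobase of merged exons, Tnni2 22.9% ± 0.296 and Tnni3 0.0887% ± 0.00356. The same shares in cKO cells were 77.3% ± 0.14, 22.6% ± 0.144 and 0.114% ± 0.0102. For troponin T, the control shares were 51.6% ± 0.591 for the fast form Tnnt3, 36.5% ± 0.746 for the slow form Tnnt1 and 11.9% ± 0.156 for the cardiac form Tnnt2. In cKO cells these shares were 47.8% ± 1.36, 40.8% ± 0.794 and 11.4% ± 0.572. Sample by sample, the Tnnt1 share was 35.9%, 36.3% and 37.3% in control and 40.0%, 41.6% and 40.9% in cKO cells, so that the groups did not overlap. With the mean coding transcript as length, the Tnnt1 share was 37.3% ± 0.765 in control and 41.5% ± 0.219 in cKO cells, that of Tnnt2 was 30.9% ± 0.404 in control cells, and that of Tnnt3 was 31.7% ± 0.363, below Tnnt1. By the same length, Tnni1 made up 85.9% ± 0.204 and Tnni2 14.1% ± 0.203 of troponin I in control cells. For troponin C, Tnnc1 made up 98.0% of the control level on free start positions and 97.9% of the cKO level.

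**Figure D1:**
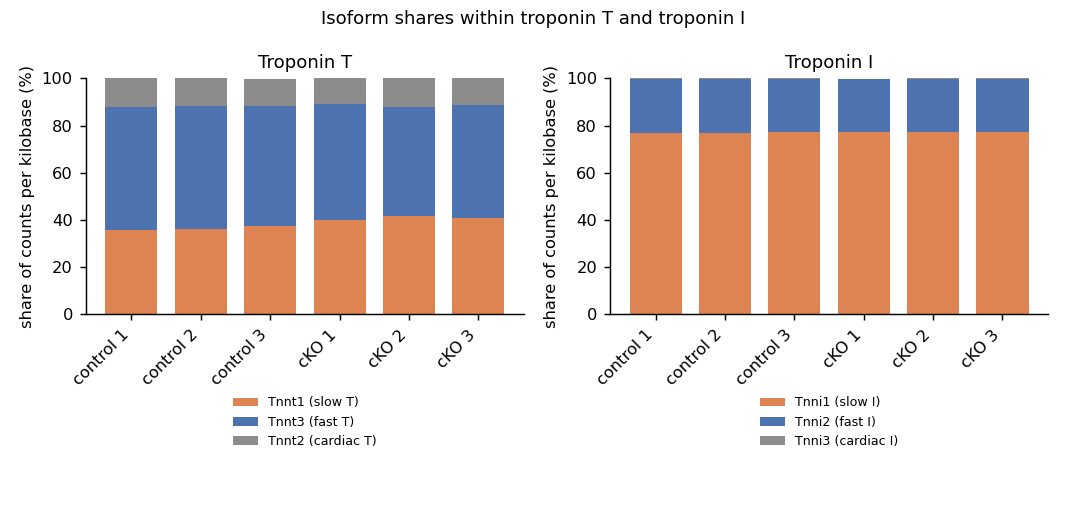
Share of each isoform gene in its troponin subunit, in percent of counts per kilobase of merged exons, with 1 stacked bar for each of the 3 control and 3 cKO samples. The Tnnt1 part of troponin T was 35.9% to 37.3% in control and 40.0% to 41.6% in cKO samples, the troponin I bars look alike, and the Tnni3 part at the top, at most 0.122%, is too thin to see.

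The cells were checked before the groups were compared. The libraries held 47944477 to 63323577 counts each, and no pair of replicates was the same library. Counts of Hira itself fell from 375, 348 and 341 over the controls to 161, 293 and 272 over the cKO samples, a log2 fold change of -0.43 (SE 0.12, adjusted p = 0.0237, edgeR's quasi-likelihood test); 44.7% of its exon bases are shared with another gene. With an adjusted p under 0.05, 3549 of 22404 genes (15.8%) differed, 2101 higher (9.38%) and 1448 lower (6.46%) in cKO cells, and the median log2 fold change of all tested genes was -0.0011. Scaling by total counts gave 2462 higher and 1057 lower genes. Satellite cell markers summed to 5003 to 5107 CPM in control and 4490.1 to 4831 CPM in cKO samples, with 1 of 10 higher and 6 lower. Markers of other cell types were higher in cKO cells: 10 of 10 for macrophages (122 to 127 CPM in control, 259.6 to 304 CPM in cKO samples), 6 of 7 tested for fibroblasts and fibro-adipogenic cells (1324 to 1413 and 1800 to 1992 CPM), 7 of 7 tested for smooth muscle and pericytes (3171 to 3231 and 3487 to 3632 CPM) and 4 of 8 for endothelial cells (19.5 to 21.1 and 29.4 to 34.6 CPM). No marker of these lists was at 0 in every library. Most of the smooth muscle sum was Acta2, with a mean of 2929 CPM in control and 3180.3 CPM in cKO samples. Most of the satellite cell sum was Des, with means of 3199 and 2925 CPM. The sort excluded cells with CD45, which macrophages carry, and with SCA1, which fibro-adipogenic cells carry, before the culture. In bulk RNA, fewer cells of a type and less RNA per cell cannot be told apart, and the part of these markers in the troponin values was not tested.

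Of the 8 troponin genes, 1 was upregulated in cKO cells, Tnnt1, and 7 did not pass the threshold, against the 15.8% called among all tested genes. Their median log2 fold change was -0.047. No troponin gene was downregulated by edgeR or by DESeq2, and 2 members had lower values at an unadjusted p under 0.05. The groups did not overlap in CPM for 1 of the 8, Tnnt1, where the cKO samples were higher; among all tested genes this held for 31.4%, with 20.3% higher in cKO cells.

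Tnnt1, which encodes slow skeletal troponin T, had 37448, 41002 and 41851 counts in control and 37058, 42262 and 43096 counts in cKO samples. Scaled to library size these were 662, 647 and 682 CPM in control and 773, 714 and 772 CPM in cKO samples. Every cKO sample was above every control sample. The mean rose from 664 ± 17.1 to 753 ± 33.5 CPM (SD, n = 3 each), and the log2 fold change was 0.16 (SE 0.037, 95% interval 0.078 to 0.24) with an adjusted p of 0.00834 by the same edgeR test, or a rise of 11.6%. The call rested on single libraries: without control replicate 2 the log2 fold change was 0.14 (adjusted p = 0.0688), and without cKO replicate 3 it was 0.13 (adjusted p = 0.0531). The direction was the same with each of the 6 samples left out, at 0.13 to 0.20.

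The other troponin T genes had slightly lower means in cKO cells and were not called. Tnnt3, the fast form, was at 690.4, 664 and 668 CPM in control and 682, 573 and 648 CPM in cKO samples. Its cKO replicate 2 was the lowest sample and cKO replicate 1 lay within the control range, so the groups overlapped. The log2 fold change was -0.11 (SE 0.051, 95% interval -0.22 to -0.0038, adjusted p = 0.165). It passed the threshold without cKO replicate 1 (-0.17, adjusted p = 0.00737) and when genes were not filtered on low counts (-0.12, adjusted p = 0.00137).

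Tnnt2, the cardiac form that immature skeletal muscle also makes, was at 783, 749.8 and 755 CPM in control and 736, 723 and 752 CPM in cKO samples. Control replicate 2 lay just below cKO replicate 3. The log2 fold change was -0.073 (SE 0.031, 95% interval -0.14 to -0.0055, adjusted p = 0.145), and this interval, which is not adjusted for the number of genes, leaves out 0 for Tnnt2 as it does for Tnnt3.

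**Figure D2:**
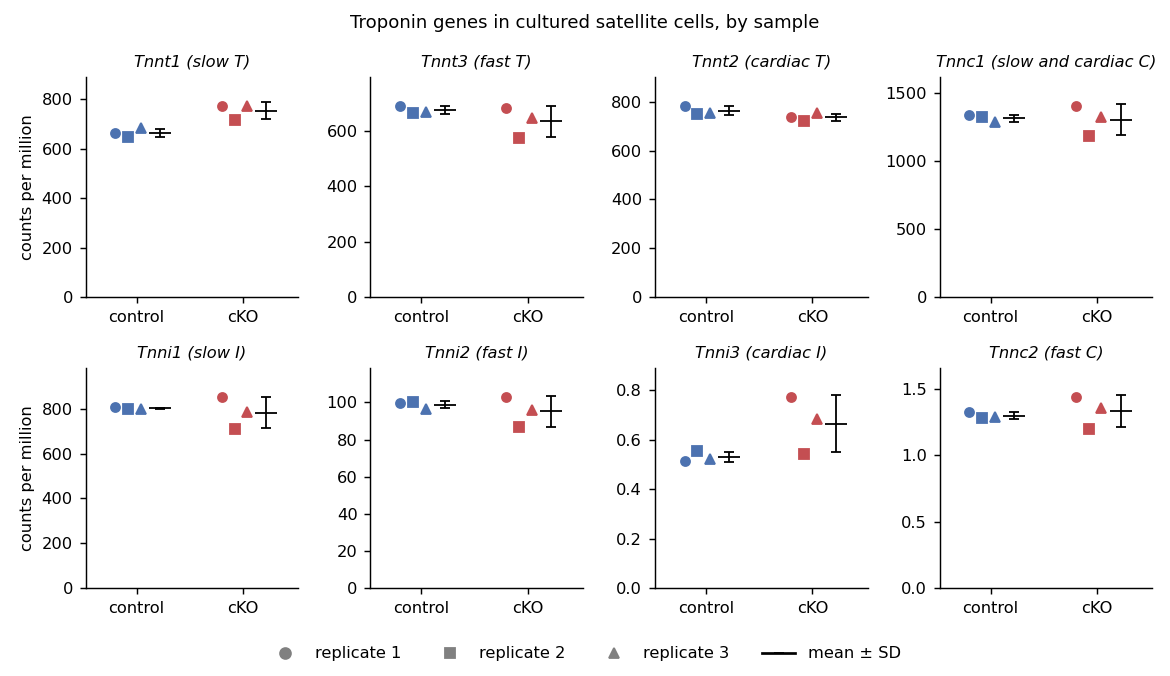
CPM (vertical axis, from 0) of the 8 troponin genes in each sample, with the mean ± SD of each group of 3 in black. Tnnt1 was at 647 to 682 CPM in control and 714 to 773 CPM in cKO samples, whereas the groups overlap in the other 7 panels and cKO replicate 2 (square) is the lowest cKO sample in 8 of 8.

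The troponin I genes, whose products keep the filament switched off at rest, showed no called difference. Tnni1, the slow form, was at 805, 800.0 and 799 CPM in control and 852, 711 and 784 CPM in cKO samples. The control samples nearly coincided, and the cKO samples lay on both sides of them. The log2 fold change was -0.058 (SE 0.05, 95% interval -0.17 to 0.048, adjusted p = 0.512).

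Tnni2, the fast form, was at 99.9, 100.1 and 96.7 CPM in control and 103, 86.6 and 96.0 CPM in cKO samples, with the same spread to both sides. Its log2 fold change was -0.082 (SE 0.05, 95% interval -0.19 to 0.025, adjusted p = 0.324). For both genes the result turned on cKO replicate 1, since without it they were called lower, Tnni1 at -0.13 (adjusted p = 0.0216) and Tnni2 at -0.14 (adjusted p = 0.0201).

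Tnni3, the adult cardiac form, had 29, 35 and 32 counts in control and 37, 32 and 38 counts in cKO samples. As CPM these were 0.513, 0.553 and 0.521 against 0.772, 0.541 and 0.681, and the cKO replicate 2 value fell inside the control range. The log2 fold change was 0.29 (SE 0.22, 95% interval -0.18 to 0.76, adjusted p = 0.444), and an interval this wide at this depth spans values from below 0 to well above that of Tnnt1.

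Of the troponin C genes, which encode the calcium sensor, Tnnc1 was at 1339, 1322 and 1287 CPM in control and 1407, 1183 and 1327 CPM in cKO samples. The cKO samples again lay on both sides of the controls. The log2 fold change was -0.036 (SE 0.05, 95% interval -0.14 to 0.071, adjusted p = 0.723). Tnnc2 was at 1.33, 1.28 and 1.29 CPM in control and 1.44, 1.2 and 1.36 CPM in cKO samples, with a log2 fold change of 0.01 (SE 0.14, 95% interval -0.3 to 0.32, adjusted p = 0.978). These values rest on the 10.2% of its start positions that Ube2c leaves free, and Ube2c was itself at a log2 fold change of -0.023 (adjusted p = 0.793).

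**Figure D3:**
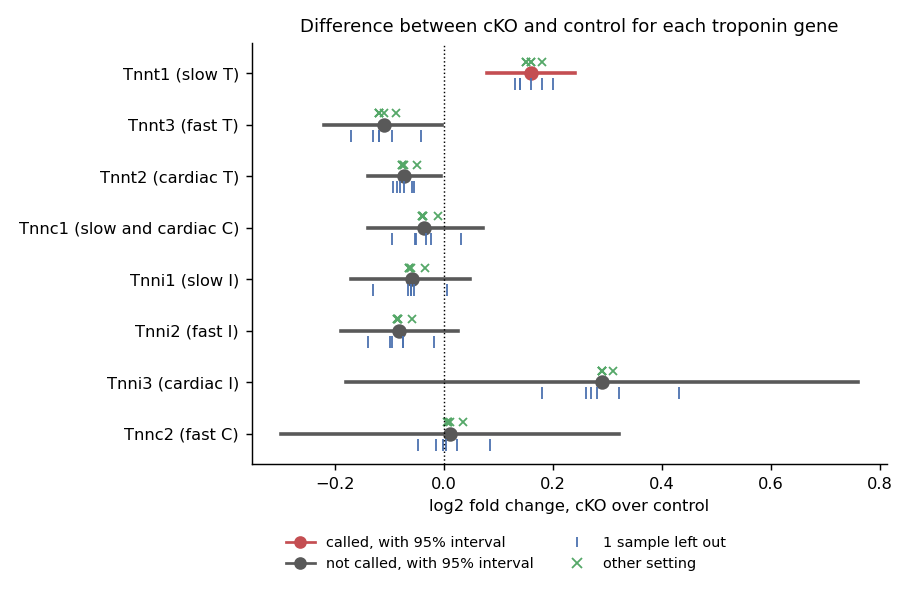
Log2 fold change of cKO over control (horizontal axis) for the 8 troponin genes, with the 95% interval of edgeR's fit as a bar, the values with 1 sample left out as ticks and those under other settings as crosses. Tnnt1 at 0.16 is the single called gene, the bars of Tnnt3 and Tnnt2 end just below 0, and those of Tnni3 and Tnnc2, which had few counts, are the longest.

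The spread between cKO samples was shared by the family but was not particular to it. cKO replicate 2 was the lowest cKO sample for 8 of 8 members and cKO replicate 1 the highest for 7 of 8, while cKO replicate 2 was lowest for 29.8% of all tested genes. Of the muscle lists described below, thin filament partners summed to 20453, 18642 and 19351 CPM in cKO replicates 1, 2 and 3. Fast fibre genes (7980.1, 6665 and 7422 CPM) and slow fibre genes (3230.4, 2944 and 3154 CPM) were in the same order. The developmental sarcomere sum was highest, and the myogenic factor sum lowest, in cKO replicate 3. Coefficients of variation in cKO cells were 8.52% to 9.13% for Tnnt3, Tnni1, Tnni2, Tnnc1 and Tnnc2, against 0.421% to 2.09% in control cells. Tnni3, with few counts, varied most, by 17.5% in cKO and 3.98% in control cells. Over tested genes at 10 CPM or more the medians were 3.51% in cKO and 2.48% in control cells. Tnnt1 and Tnnt2 varied less, by 4.44% and 2.0% in cKO cells. Macrophage markers summed to 271, 304 and 259.6 CPM in cKO replicates 1, 2 and 3. Sums for fibroblast (1816, 1992 and 1800 CPM), endothelial (30.0, 34.6 and 29.4 CPM) and smooth muscle markers (3537, 3632 and 3487 CPM) had the same order. The library with the lowest troponin values thus had the highest of these sums. The lowest were in cKO replicate 3, not in cKO replicate 1, where 7 of 8 members were highest. Any link between these sums and the troponin values was not tested. Without cKO replicate 2 the log2 fold change of Tnni1 was 0.006 and that of Tnnc1 was 0.031.

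Ratios of isoforms were compared as well, as the log2 of 1 gene's level per kilobase over another's. Movement cancels in a ratio only where both genes share it equally. Between cKO samples Tnnt3 varied by 8.81%, against 4.44% for Tnnt1 and 2.0% for Tnnt2, so it does not cancel fully within troponin T. The ratio of slow to fast troponin T, Tnnt1 over Tnnt3, was -0.54, -0.51 and -0.45 in control and -0.30, -0.16 and -0.23 in cKO samples on the log2 scale. The ratio was highest in cKO replicate 2, the sample in which Tnnt3 was lowest. All cKO samples lay above all control samples, and the ratio was 1.21 times as high in cKO cells, a difference of 0.27 that ran from 0.24 to 0.31 with each sample left out. The exact two-sided permutation test gave p = 0.1, the smallest that 3 samples against 3 allow, and 0.14 after adjustment over the 7 ratios, so no ratio could pass the threshold.

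Tnnt1 over Tnnt2 was at 1.57, 1.6 and 1.67 in control and 1.89, 1.8 and 1.85 in cKO samples, again without overlap and with a difference of 0.23 (exact permutation p = 0.1). Tnnt2 over Tnnt3, in which Tnnt1 has no part, overlapped between the groups, with means of -2.11 ± 0.0033 and -2.07 ± 0.11 (SD, n = 3 each, exact permutation p = 0.7). The difference of troponin T composition was therefore seen in both ratios that contain Tnnt1 and was within the spread in the ratio that does not.

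No comparable difference was seen between slow and fast troponin I. Tnni1 over Tnni2 was at 1.74, 1.73 and 1.78 in control and 1.79, 1.77 and 1.76 in cKO samples, a difference of 0.022 (exact permutation p = 0.3) with overlapping groups. The ratio of Tnnt1 to Tnnt3 thus moved by 0.27 and that of Tnni1 to Tnni2 by 0.022; the difference between these values was not tested. Tnni3 was higher relative to Tnni2 by 0.38 and relative to Tnni1 by 0.35, without overlap (exact permutation p = 0.1 for each), but on 29 to 38 counts of Tnni3 in a sample. Tnnc1 over Tnnc2 was lower in every cKO sample, at 9.55 to 9.56 against 9.59 to 9.63, a difference of -0.051 (exact permutation p = 0.1). This small difference rests on only 69 to 81 counts of Tnnc2 in a sample. These levels use merged exon lengths; on the start positions free of Ube2c the log2 ratio in control cells was 5.6 in place of 9.61.

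**Figure D4:**
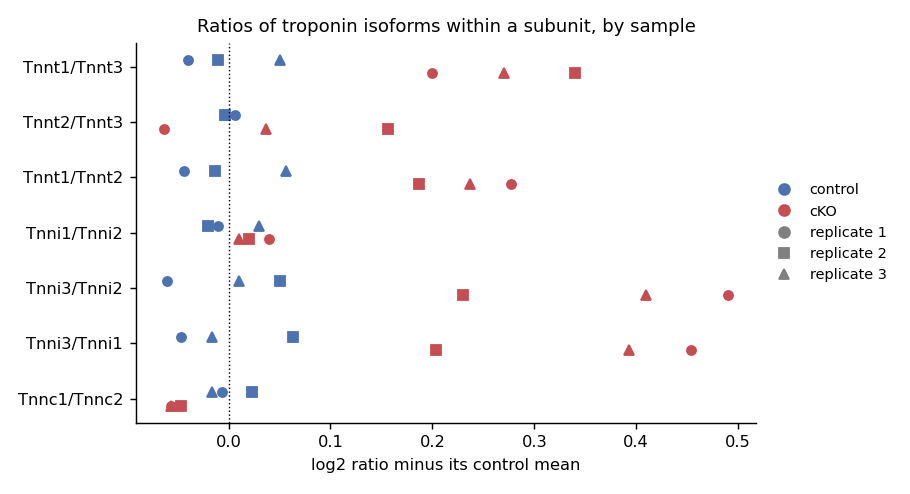
Log2 ratio of 2 isoform genes in each sample minus the mean of the control samples (horizontal axis), for 7 ratios within a subunit. The cKO samples lie to the right of all control samples for Tnnt1/Tnnt3 and Tnnt1/Tnnt2 and for both ratios with Tnni3, slightly to the left for Tnnc1/Tnnc2, and among them for Tnnt2/Tnnt3 and Tnni1/Tnni2.

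The partners of troponin on the thin filament went both ways. Of 23 genes, 6 were upregulated and 6 downregulated in cKO cells, with a median log2 fold change of -0.055. Among all tested genes, 9.38% were higher and 6.46% lower. Acta1, skeletal alpha-actin, was not called (6032 ± 54.3 CPM in control, 5853 ± 547 CPM in cKO cells, log2 fold change -0.067, adjusted p = 0.454). Of the tropomyosin genes, Tpm2 was not called (-0.055, adjusted p = 0.473). The others were higher, Tpm1 by 0.20 (adjusted p = 0.000227), Tpm3 by 0.22 (adjusted p = 0.000388) and Tpm4 by 0.22 (adjusted p = 8.6e-05). So were Lmod1, a smooth muscle leiomodin (0.77, adjusted p = 3.2e-08), and Acta2, smooth muscle actin (0.094, adjusted p = 0.0358), both in a direction shared with the smooth muscle markers, one of which is Acta2. Neb, the giant ruler protein of the skeletal thin filament, was lower by 0.33 on the log2 scale (-0.33, adjusted p = 2.5e-06), as were Klhl41 (-0.31, adjusted p = 3.3e-05) and the skeletal leiomodin Lmod3 (-0.25, adjusted p = 0.00022).

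The slow fibre list, which also holds regulators such as Sox6 and Tead1, did not move as a block with Tnnt1. Of 17 tested of 19, 5 were upregulated and 4 downregulated, with a median of -0.021. Over all tested genes, 9.38% were higher and 6.46% lower, so both directions were called more often in this list. The slow myosin heavy chain gene Myh7 rose from 431 ± 5.01 to 618 ± 31.2 CPM (log2 fold change 0.50, adjusted p = 2.3e-07), and 13.3% of its exon bases are shared with another gene. Myh7b, a related slow myosin, rose by 0.65 (adjusted p = 1.3e-08), and the slow and ventricular light chain gene Myl3 by 0.76 (adjusted p = 0.00445) from 0.94 ± 0.175 CPM. Mybpc1, slow myosin-binding protein C, fell (-0.25, adjusted p = 0.000108), as did the Z-disc gene Csrp3 (-0.27, adjusted p = 0.00271) and Sox6, which encodes a repressor of slow genes (-0.20, adjusted p = 0.00783). Casq2, the slow and cardiac calsequestrin, was at -0.11 (adjusted p = 0.152), and Atp2a2, the slow calcium pump, was at -0.026 (adjusted p = 0.655).

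The called genes of the fast fibre list and of the developmental sarcomere list were lower in cKO cells. For the fast genes these were 8 of 17 tested of 18, with 0 upregulated and a median of -0.18; in the other direction there was 1 gene at an unadjusted p under 0.05, 0 in DESeq2 and 1 called with scaling by total counts. Myh2, a fast myosin, fell from 265 ± 5.84 to 209.7 ± 25.5 CPM (-0.36, adjusted p = 0.000942). The fast light chain genes Mylpf (-0.22, adjusted p = 0.0242) and Myl1 (-0.18, adjusted p = 0.0116) fell too, along with the glycolytic enzyme gene Pfkm (-0.18, adjusted p = 0.0059). Of the fast troponin genes, Tnnt3 was at -0.11, Tnni2 at -0.082 and Tnnc2, on 69 to 81 counts in a sample, at 0.01, and none was called. The developmental sarcomere list, of 14 genes, also holds genes that adult fibres keep, such as Ttn, Ckm and Cav3. Of the 14, 9 were downregulated and 0 upregulated, with a median of -0.18 and 0 higher at an unadjusted p under 0.05 or in DESeq2. For both lists, the shares over all tested genes were 6.46% lower and 9.38% higher. Ttn fell by 0.46 (-0.46, adjusted p = 8.6e-08), the embryonic light chain gene Myl4 by 0.36 (-0.36, adjusted p = 0.000296), the Z-disc gene Ldb3 by 0.19 (-0.19, adjusted p = 0.000317), cardiac actin Actc1 by 0.19 (-0.19, adjusted p = 0.0144) and embryonic myosin Myh3 by 0.17 (-0.17, adjusted p = 0.00696). Tnnt2, which immature skeletal muscle also makes, was at -0.073 and not called.

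Of 20 cardiac genes other than the troponins, 7 were upregulated in cKO cells, 0 were downregulated, 4 were tested and not called, and 9 had too few counts to be tested. Over all tested genes, 9.38% were higher and 6.46% lower. The median of the 11 tested was 0.44; 1 was lower at an unadjusted p under 0.05 and 0 in DESeq2. Myh6, the atrial myosin heavy chain, rose from 66.5 ± 1.38 to 97.5 ± 3.03 CPM (0.53, adjusted p = 7.4e-08). Hand2, a heart and mesenchyme factor, rose by 2.12 (adjusted p = 0.000114) but only to 0.621 ± 0.112 CPM, and Cacna1c, a calcium channel also present in smooth muscle, rose by 0.44 (adjusted p = 0.000162). Ankrd1, which injured skeletal muscle is also known to express, rose by 0.12 (adjusted p = 0.0205). Of 10 cardiomyocyte markers, 2 were tested, Myh6 and Hand2; Myl7 had 0 counts in all 6 libraries, and Nppa and Tbx5 had at most 1 count in a library. The marker sum of 66.2 to 68.7 CPM in control and 95.2 to 101 CPM in cKO samples was nearly all Myh6.

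Myogenic transcription and fusion factors were lower, and calcium handling genes were mixed. Of 12 myogenic factors, 10 were downregulated and 0 upregulated, with a median of -0.20 and 0 higher at an unadjusted p under 0.05 or in DESeq2. Among them were Myf5 (-0.37, adjusted p = 1.9e-06), Mef2c (-0.31, adjusted p = 3.1e-05), the fusion gene Mymx (-0.29, adjusted p = 7e-05), Myog (-0.20, adjusted p = 0.000626) and Myod1 (-0.16, adjusted p = 0.00225). Of 17 calcium handling genes tested of 18, 3 were upregulated and 4 downregulated, with a median of -0.058. Beside both lists, the shares over all tested genes were 9.38% higher and 6.46% lower. The calmodulin genes Calm2 (0.18, adjusted p = 0.000496) and Calm3 (0.16, adjusted p = 0.000955) rose, as did the release channel gene Ryr3 (0.22, adjusted p = 0.0491). The junctional genes Jph1 (-0.20, adjusted p = 0.00239) and Jph2 (-0.18, adjusted p = 0.00319), the calcium-binding gene Hrc (-0.19, adjusted p = 0.00409) and the store gene Srl (-0.19, adjusted p = 0.00719) fell, and Cacng1 was at -0.11 (adjusted p = 0.0679).

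**Figure D5:**
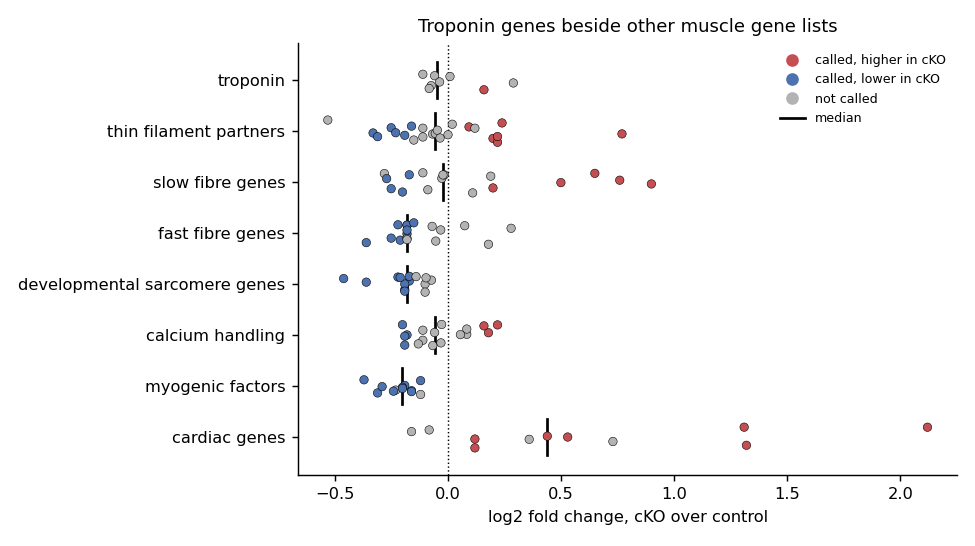
Log2 fold change of cKO over control (horizontal axis) for each tested gene of the troponin family and of 7 other lists, coloured by the call, with the list's median as a black bar. The troponin median of -0.047 lies between those of the fast and developmental lists at -0.18 and that of the cardiac list at 0.44.

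Genes beside the troponin genes were also read, since the members lie in pairs. Next to Tnnt1, Ppp1r12c, a myosin phosphatase subunit gene, was higher (0.19, adjusted p = 0.00232), while Tnni3 on the other side was not called. Lsp1, between Tnni2 and Tnnt3, was lower (-0.16, adjusted p = 0.000966), and Pkp1, beyond Tnnt2, was lower (-0.34, adjusted p = 0.000144). Nisch, which spans Tnnc1, was higher (0.12, adjusted p = 0.0291). Syt8, Mrpl23, Lad1, Phlda3, Snx21, Sema3g, Ube2c and Dnaaf3 were not called.

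Among 8846 protein-coding genes at 10 CPM or more, those whose log2 CPM over the 6 samples followed Tnnt1 most closely were Chst14 (Pearson r = 0.992), Zcrb1 (r = 0.99) and Chmp6 (r = 0.988). These values describe 6 points that share libraries and scaling, 318 genes reached an r over 0.9, and none of the 3 passed the test between groups.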

How the data were processed

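RNA-seq libraries of 3 control and 3 cKO samples were made by the authors from 400 ng of total RNA after removal of ribosomal RNA, with a stranded kit, and sequenced as single-end reads of 75 bp. Per the labels, reads were aligned with Bowtie2 2.3.4.2, which does not split reads over introns, to mm10, and the authors deposited raw counts per gene made with featureCounts 1.6.3. The annotation and strand setting are not given in the sources used here; the 55536 gene identifiers are those of GENCODE M21. The authors' tables of normalized values and of their DESeq2 2.11.40.6 comparison were not used.

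Counts were fitted with edgeR 4.0.16 in R 4.3.3 (filterByExpr, TMM, quasi-likelihood test, genotype only), with Benjamini-Hochberg adjustment over 22404 genes and a threshold of 0.05. The coefficient of variation between replicates was 3.92%. Depth was 47944477 to 63323577 counts per sample. Ratios were compared by exact permutation tests. Alternatives were DESeq2 1.42.0, other scalings, no filter, a replicate block, other gene lengths and leaving out each sample. The members and lists were chosen with earlier results of these data known. Genes named were the 8 members, Hira, the 3 called genes of each list with the smallest adjusted p in each direction and its 2 highest by level, the marker lists, neighbouring protein-coding genes and the 3 genes most correlated with Tnnt1. Some genes that this rule names are not reported here. Promoters are from RefSeq on GRCm38.p6. Tables used pandas 2.3.3, numpy 2.4.6 and scipy 1.17.1 under Python 3.11.15; plots used matplotlib 3.10.9.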

Additional observations from a re-analysis of the deposited data

How the results depend on the processing

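With 3 samples a group, leaving out 1 moved the number of genes lower in cKO to between 917 and 1673, and of genes higher to between 1571 and 2214. Troponin genes called lower numbered 0 to 3 and called higher 0 to 1 over these fits. The 3 were Tnnt3, Tnni1 and Tnni2 without cKO replicate 1. Without filtering, 1 was lower, Tnnt3 at -0.12. Log2 fold changes with 1 sample left out were 0.13 to 0.20 for Tnnt1, -0.17 to -0.043 for Tnnt3, -0.094 to -0.055 for Tnnt2, -0.13 to 0.006 for Tnni1, -0.14 to -0.018 for Tnni2, 0.18 to 0.43 for Tnni3, -0.095 to 0.031 for Tnnc1 and -0.047 to 0.085 for Tnnc2. Tnni1 and Tnnc1 changed sign without cKO replicate 2 (0.006 and 0.031), as did the ratio Tnnt2/Tnnt3 (-0.015), whose differences ran from -0.015 to 0.098. Tnnc2 changed sign without control replicate 2 (-0.0013), cKO replicate 1 (-0.047) and cKO replicate 3 (-0.015). The number of genes called from the developmental sarcomere list ran from 6 to 14, the latter without cKO replicate 1.

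Levels depended on the length. Per kilobase of start positions inside 1 exon, control levels were 558 (Tnnt1), 112 (Tnnt2), 1137 (Tnnt3), 307 (Tnni1), 94.6 (Tnni2), 0.36 (Tnni3), 2034 (Tnnc1) and 4.27 (Tnnc2) CPM. On positions free of other genes, an alternative chosen after seeing the data, they were the same except 0.363 for Tnni3 and 41.9 for Tnnc2. Per kilobase of mean coding transcript they were 894, 740.4, 759, 947, 155, 0.804, 1825 and 1.85 CPM in that order of genes. By TMM library size Tnni1 was at 225. By start positions inside 1 exon the control log2 ratios were -1.03 for Tnnt1/Tnnt3, -3.35 for Tnnt2/Tnnt3, 2.32 for Tnnt1/Tnnt2, 1.7 for Tnni1/Tnni2 and 8.9 for Tnnc1/Tnnc2, which was 5.6 on positions free of other genes, again chosen after seeing the data. The cause of the other shifts was not tested.

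Replicate numbers are not said to pair the samples. Deviations of log2 CPM from the group means had correlations of -0.013, -0.004 and -0.015 between same-numbered samples. These values gave no sign of pairing but cannot exclude it. With a replicate block, Tnnt1 was at 0.16 (edgeR, adjusted p = 0.0064), and 1901 genes were higher and 1251 lower.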
